A study of Mus musculus with 86 samples.

Results

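Soleus muscle of mice given the extract JGT04 at 100 mg/kg was compared with soleus muscle of mice given only dexamethasone (DEX), a synthetic glucocorticoid. The libraries were chosen by their labels, 5 of the extract group and 4 of the DEX group, which makes 9 of the 86 mRNA libraries of the series. The study measured gastrocnemius and soleus muscle in 9 groups per muscle, to see how Jakyak-gamcho-tang (JGT), a herbal extract, acts on muscle that wastes under DEX. All animals were male C57BL/6N mice aged 10 weeks that had at least 1 week to settle in. Within a muscle the labels name each library as its own mouse, and the mouse numbers of a group recur in both muscles. The JGT04 group received DEX by intraperitoneal injection at 25 mg/kg each day for 10 days and, 30 minutes after it, JGT04 by gavage at 100 mg/kg. JGT04 is a hot-water extract of peony root and liquorice root at a weight ratio of 1 to 2, given in 0.5% carboxymethylcellulose. The DEX group received the same injections and a gavage of buffer without cellulose. Untreated mice received buffer by both routes. The effect of JGT04 therefore cannot be told apart from that of its cellulose vehicle.

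The soleus is a postural muscle rich in slow, oxidative fibres. Glucocorticoids act through the glucocorticoid receptor, a transcription factor that in muscle raises ubiquitin ligases such as Fbxo32 and Trim63, lowers protein synthesis and shifts fuel use. A muscle sample also holds capillaries, nerve, connective tissue and immune cells, and all of them contribute RNA. In such bulk libraries fewer cells of a type and less RNA per cell cannot be told apart.

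Several features of the libraries touch the results and are given first. Total counts were 24.3 to 30.6 M (mega counts) per JGT04 100 library and 18.8 to 26 M per DEX library. The slow myosin Myh7, the defining gene of slow fibres, had 6050 ± 634 CPM (counts scaled to library size) in the JGT04 100 soleus and 6470 ± 2100 CPM in the DEX soleus, against 334 ± 115 and 276 ± 103 CPM in the gastrocnemius of the same groups (SD, n = 5 and 4), which matches the muscle labels. DEX mouse 4 stood apart in the soleus. Its median correlation with the other DEX libraries was 0.9539 and that of each of the other 8 JGT04 100 and DEX libraries with its own group at least 0.9845. DEX mice 1 and 3 carried far more nerve RNA than the rest. The libraries also fell into parts that follow the order in which they are listed. In soleus, DEX, non-treated and JGT02 100 mg/kg libraries lie in the earlier part, and all JGT04 libraries in the later part. The JGT02 400 mg/kg group is the only soleus group divided by it, with 2 and 2 mice in the fit. In gastrocnemius the JGT04 100 group is divided by the listed order too. The labels name 1 batch for all libraries, and the division was noticed in the data. A fit with a term for the part left 2 calls between JGT04 100 and DEX, so at this spread the extract and the listed order can hardly be told apart. Of the 4556 calls 92.1% kept their sign with the term, at a median size of 0.27 on the log2 scale against 0.42 without it, while the median SE was 0.19 against 0.11. Values with the term are given for the lists and genes where the results turn on it.

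The soleus transcriptomes of JGT04 100 and DEX mice differed widely, and mostly by small amounts. Of 14696 genes tested, 1924 (13.1%) were higher and 2632 (17.9%) were lower in the JGT04 100 soleus at an adjusted p under 0.05 in the edgeR quasi-likelihood test, 31% in all. The counts of the gene lists below are to be read beside these shares of all genes. Only 58 rises and 518 falls exceeded 2-fold, and 1710 rises and 1408 falls were under 1.5-fold. Leaving out each of the 9 libraries in turn kept 960 rises and 1024 falls in all 9 fits. Without DEX mouse 4 the counts were 1281 (8.66%) and 1487 (10.1%). Without DEX mice 1 and 3 they were 1873 (12.5%) and 2504 (16.7%), 29.1% in all, and without mice 1 and 4 they were 995 (6.65%) and 1268 (8.47%). The libraries of the groups did not overlap for 2375 genes (16.2%): 1119 (7.61%) were higher and 1256 (8.55%) lower in JGT04 100. With the listed-order term no gene was higher and 2 (0.0136%) were lower. The p-values and SE use a spread shared by the 9 soleus groups, so they do not measure that of the DEX mice alone. A fit of only the JGT04 100 and DEX libraries called 671 genes higher and 907 lower of 13943 tested. It kept 1563 of the 4442 main calls that it tested (35.2%).

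**Figure D1:**
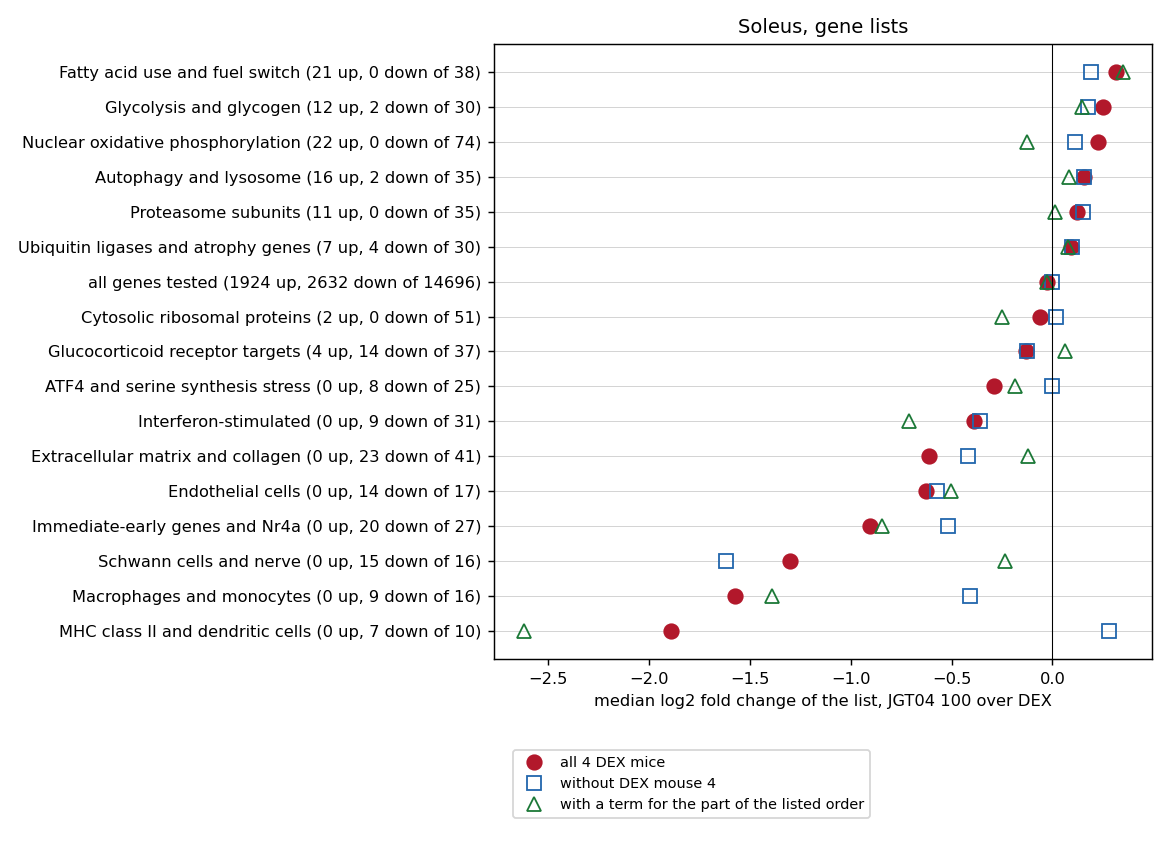
Median log2 fold change of JGT04 100 over DEX (horizontal axis) for gene lists (vertical axis), with all DEX libraries, without DEX mouse 4 and with a term for the part of the listed order. The endothelial median stays between -0.63 and -0.51 in all 3 fits, whereas the macrophage median is -1.58 with all DEX libraries and -0.41 without DEX mouse 4.

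Endothelial genes were lower in the JGT04 100 soleus. Of 17 endothelial markers 14 were lower and none was higher, against 17.9% and 13.1% of all genes. The median log2 fold change was -0.63 against -0.03 over all genes. Eng, a co-receptor for transforming growth factor beta on endothelial cells (chr2:32646595-32682669, GRCm38, plus strand), had 66.1, 66, 60.4, 55.9 and 49.3 CPM in JGT04 100 mice 1 to 5, against 109, 120, 181 and 134 CPM in DEX mice 1 to 4. Every extract library lay below every DEX library. The log2 fold change was -1.19 ± 0.12 (SE, adjusted p = 1.03e-08), -1.19 without DEX mouse 4, and -1.04 with the listed-order term (adjusted p = 0.0609). In untreated soleus Eng averaged 67.6 ± 7.37 CPM (SD, n = 5), below every DEX library.

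Pecam1, an adhesion molecule of endothelial junctions, had 62, 63.8, 66.6, 64.9 and 63.5 CPM in JGT04 100 mice, against 90, 107, 116 and 118 CPM in DEX mice. The groups again did not overlap, and the log2 fold change was -0.75 ± 0.10 (adjusted p = 1.16e-06), or -0.53 with the listed-order term (adjusted p = 0.25). Sox18, a transcription factor of vessel formation, fell by 0.73 on the log2 scale (adjusted p = 3.74e-05). The libraries did not overlap for 11 of the 17 markers, against 8.55% of all genes. The summed markers came to 582 to 655 CPM in JGT04 100, 812 to 1080 CPM in DEX and 604 to 771 CPM in untreated soleus. The list kept 12 falls without DEX mouse 4 and 13 without mice 1 and 3. In DEX against untreated soleus, which shares the DEX libraries, 11 of the 17 were higher and 1 was lower, against 23.9% and 19.1% of all genes (43% in all).

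The only genes called with the listed-order term were Adcy4 and Gpr56, chosen for that after their values were seen. Adcy4, an adenylyl cyclase, had 11.6, 11.9, 10.7, 12.5 and 11 CPM in JGT04 100 mice, against 22.5, 20.5, 29.5 and 33.4 CPM in DEX mice. Gpr56, an adhesion-family receptor, had 16.7, 16, 14.6, 13.8 and 13.1 CPM in JGT04 100 mice, against 28.1, 30.1, 37 and 42 CPM in DEX mice. Both were low in every extract library and high in every DEX library. Their log2 fold changes were -1.20 ± 0.11 (adjusted p = 1.14e-09) for Adcy4 and -1.21 ± 0.10 (adjusted p = 1.09e-10) for Gpr56. With the term they were -1.09 (adjusted p = 0.0246) for Adcy4 and -1.21 (adjusted p = 0.00133) for Gpr56.

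**Figure D2:**
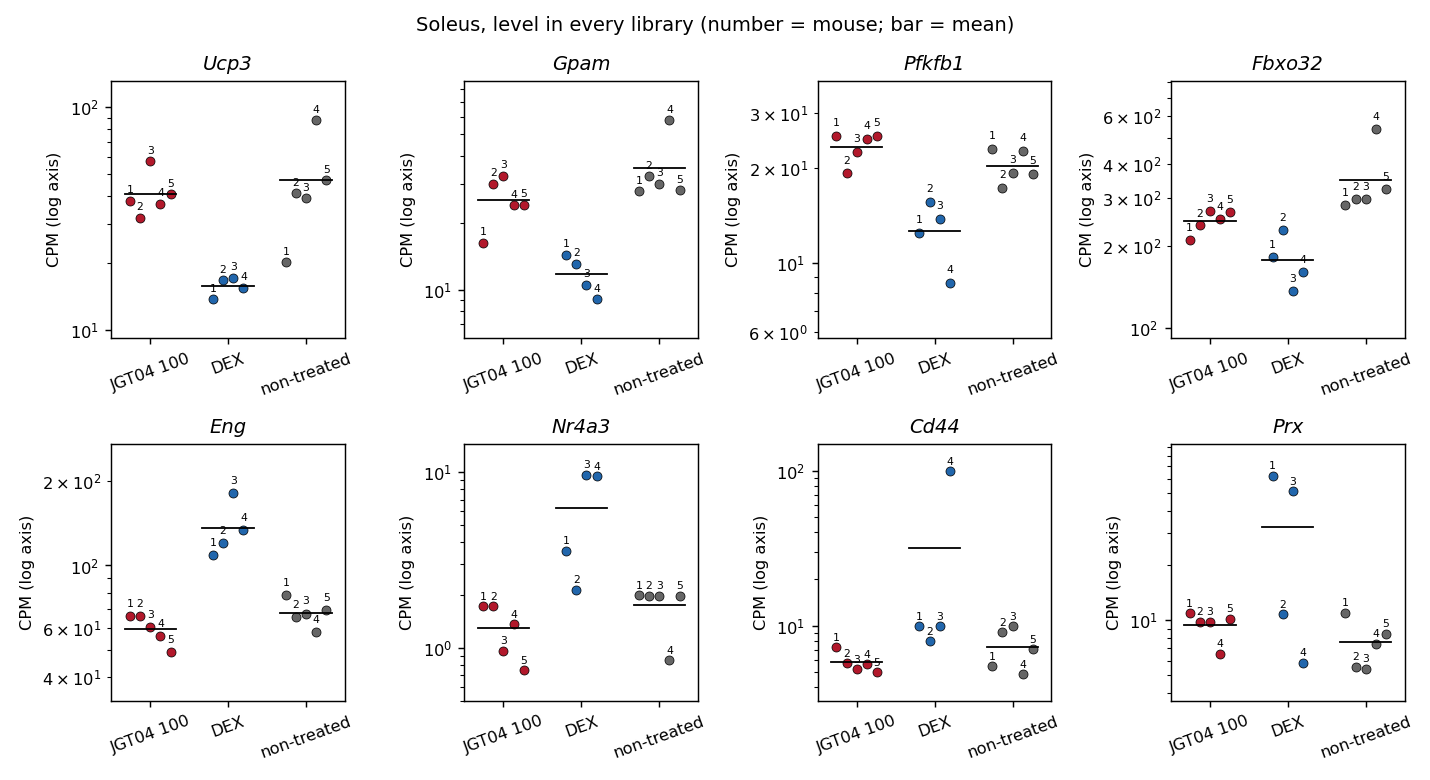
CPM per library on a log axis for 8 genes in the JGT04 100, DEX and non-treated soleus; numbers are mice and bars are group means. Ucp3, Gpam and Pfkfb1 lie higher and Eng and Nr4a3 lower in every JGT04 100 library than in any DEX library; Cd44 is set apart in DEX mouse 4 (99.4 CPM) and Prx in DEX mice 1 and 3 (62.2 and 51.1 CPM).

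Genes of fuel use were higher. Of 38 genes of fatty acid use and the fuel switch 21 were higher and none was lower, against 13.1% and 17.9% of all genes. The median log2 fold change was 0.32. With the listed-order term the median was 0.35. In DEX against untreated soleus, which shares the DEX libraries, 27 of these 38 were lower, against 19.1% of all genes. Ucp3, a mitochondrial carrier that rises with fatty acid oxidation (chr7:100472990-100486432, plus strand), had 38.1, 31.8, 57.1, 36.9 and 40.6 CPM in JGT04 100 mice, against 13.7, 16.7, 17.1 and 15.4 CPM in DEX mice. Every extract library was higher than every DEX library, while untreated soleus averaged 46.9 ± 24.9 CPM (SD, n = 5). It was higher by 1.38 ± 0.34 on the log2 scale (adjusted p = 0.00296), and 1.37 without DEX mouse 4. It was 1.51 with the listed-order term (adjusted p = 0.346).

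Acadm, a dehydrogenase of fatty acid oxidation, was higher by 0.53 (adjusted p = 0.000302), and Etfdh, which passes electrons from that pathway to the respiratory chain, by 0.52 (adjusted p = 0.00154). Pdk4, the kinase that holds back pyruvate oxidation, did not pass (log2 fold change 0.24, adjusted p = 0.691). The list kept 14 rises without DEX mouse 4, beside 1 fall, and 6 rises without mice 1 and 4, beside 2 falls. DEX mouse 4 had the lowest summed level, 6950 CPM, against 11500 to 13900 CPM in JGT04 100 and 10900 to 11500 CPM in the other DEX libraries.

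Of 20 genes of lipid and triglyceride synthesis 3 were higher and 4 were lower (median -0.10), and the median was 0.34 with the listed-order term. These counts are near the shares of all genes, 13.1% higher and 17.9% lower. In DEX against untreated soleus 14 of the 20 were higher and 2 were lower, against 23.9% and 19.1% of all genes. Gpam, which catalyses the first step of glycerolipid synthesis (chr19:55067268-55127238, minus strand), had 16.3, 29.9, 32.5, 24 and 24.2 CPM in JGT04 100 mice, against 14.4, 13.1, 10.5 and 9.06 CPM in DEX mice. The groups did not overlap, though JGT04 100 mouse 1 lay close to DEX mouse 1. Its log2 fold change was 1.12 ± 0.29 (adjusted p = 0.00369), 1.02 without DEX mouse 4 and 1.10 with the listed-order term (adjusted p = 0.391). Dgat2, which makes triglyceride, was higher by 0.67 (adjusted p = 0.00296). Elovl5, a fatty acid elongase, fell by 0.77 (adjusted p = 1.42e-05).

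Of 30 genes of glycolysis and glycogen 12 were higher and 2 were lower, against 13.1% and 17.9% of all genes. Pfkfb1, which makes and breaks the regulator fructose 2,6-bisphosphate (chrX:150588229-150643878, plus strand), had 25.2, 19.2, 22.4, 24.8 and 25.2 CPM in JGT04 100 mice, against 12.4, 15.6, 13.8 and 8.6 CPM in DEX mice. The extract libraries were all above the DEX libraries. Pfkfb1 differed by 0.89 ± 0.12 on the log2 scale (adjusted p = 3.32e-06), and by 0.60 with the listed-order term (adjusted p = 0.272). Gys1, the muscle glycogen synthase, was higher by 0.64 (adjusted p = 7.67e-05), Pfkm, the muscle phosphofructokinase, by 0.49 (adjusted p = 0.000541), and Slc2a4, the insulin-responsive glucose carrier, by 0.51 (adjusted p = 0.000508). Ppp1r3c, a glycogen-targeting subunit of protein phosphatase, fell by 0.68 (adjusted p = 0.00323), as did Slc2a1, the basal glucose carrier, by 0.82 (adjusted p = 0.00022). Ppp1r3c had 64.8 to 107 CPM in JGT04 100, 91.3 to 155 CPM in DEX and 220 to 375 CPM in untreated soleus.

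Nuclear genes of oxidative phosphorylation were higher for 22 of 74, with none lower and a median log2 fold change of 0.23, and for 10 of 74 without DEX mouse 4. The shares of all genes that were higher were 13.1%, and 8.66% without that mouse. Sdha and Sdhc, subunits of succinate dehydrogenase, were higher by 0.47 and 0.48 (adjusted p = 0.00102 and 0.000449). With the listed-order term the median of the list was -0.13. In the JGT02 400 mice, the only soleus group divided by the listed order, this list also had a median of 0.31 in the later over the earlier mice. Of 15 mitochondrially encoded genes none passed, and of 51 cytosolic ribosomal genes 2 were higher and none was lower. In DEX against untreated soleus 47 of these 51 were higher and none was lower, against 23.9% and 19.1% of all genes.

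Lists of protein breakdown and atrophy genes had small median changes, and more members were higher than lower. Of 30 ubiquitin ligase and atrophy genes 7 were higher and 4 were lower, and of 35 proteasome subunits 11 were higher and none was lower. Of 35 autophagy and lysosome genes 16 were higher and 2 were lower. Among all genes 13.1% were higher and 17.9% lower. The largest falls of the ligase and atrophy list were Mt2, Mt1 and Cdkn1a, which are not ubiquitin ligases. Within the DEX group they were highest in mouse 4, at 258, 313 and 82.1 CPM. Fbxo32, the ubiquitin ligase also called atrogin-1 (chr15:58175879-58214932, minus strand), had 210, 238, 269, 251 and 266 CPM in JGT04 100 mice, against 182, 229, 137 and 160 CPM in DEX mice. DEX mouse 2 lay within the extract group, so the groups overlapped. The log2 fold change was 0.48 ± 0.14 (adjusted p = 0.0069), or 0.35 with the listed-order term (adjusted p = 0.586), and untreated soleus averaged 349 ± 108 CPM (SD, n = 5). Trim63, the muscle RING finger ligase, had 92.9 to 103 CPM in JGT04 100 and 75.9 to 122 CPM in DEX, and its log2 fold change of -0.01 ± 0.09 did not pass (adjusted p = 0.952).

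The proteasome median of 0.12 was 0.01 with the listed-order term, and in the divided JGT02 400 group the proteasome list had a median of 0.13 in the later over the earlier mice. Psmb7, a proteasome core subunit, was higher by 0.47 (adjusted p = 0.000208), and Psme4, a proteasome activator, by 0.30 (adjusted p = 0.00057). Atg14, which starts autophagosome formation, was higher by 0.42 (adjusted p = 0.00101), and Bnip3, a receptor for the removal of mitochondria, by 0.49 (adjusted p = 0.00134). Without DEX mouse 4 the counts were 7 higher and 1 lower for the ligase and atrophy list, 10 and 0 for the proteasome, and 10 and 0 for autophagy. Foxo1 and Foxo3, transcription factors that drive atrophy genes, did not pass, with log2 fold changes of -0.13 (adjusted p = 0.209) and 0.11 (adjusted p = 0.416). Neither did Mstn, the growth inhibitor myostatin (-0.22, adjusted p = 0.778), nor Igf1, a muscle growth factor (-0.15, adjusted p = 0.718).

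Of 25 heat shock genes 9 were lower and 2 were higher, and without DEX mouse 4 there were 4 lower and 2 higher. For all genes the shares were 17.9% lower and 13.1% higher, or 10.1% and 8.66% without that mouse. Hspa1b and Hspa1a, the neighbouring genes of the inducible chaperone HSP70, and Hspb1, a small heat shock protein, were among the 9, and their promoters are shown for the letters that heat shock factor is known to bind. Heat shock factor binds repeats of the letters GAA in opposite orientations. The 250 bases before the start of each gene are shown from RefSeq (GRCm38.p6), with matches to GAANNTTC or TTCNNGAA in capitals; each pattern reads the same on both strands. Hspa1b lies at chr17:34959239-34959488 and Hspa1a at chr17:34972157-34972406, both on the minus strand, and Hspb1 at chr5:135887669-135887918 on the plus strand.
Hspa1b: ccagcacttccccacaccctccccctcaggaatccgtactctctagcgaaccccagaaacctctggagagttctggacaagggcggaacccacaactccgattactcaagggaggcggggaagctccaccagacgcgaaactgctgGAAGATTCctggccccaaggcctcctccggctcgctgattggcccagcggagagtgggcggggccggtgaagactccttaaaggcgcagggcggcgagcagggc
Hspa1a: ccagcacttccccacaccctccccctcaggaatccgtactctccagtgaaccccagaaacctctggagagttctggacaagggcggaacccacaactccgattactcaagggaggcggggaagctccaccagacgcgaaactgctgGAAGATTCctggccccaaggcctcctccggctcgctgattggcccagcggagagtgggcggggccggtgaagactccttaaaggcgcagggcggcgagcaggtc
Hspb1: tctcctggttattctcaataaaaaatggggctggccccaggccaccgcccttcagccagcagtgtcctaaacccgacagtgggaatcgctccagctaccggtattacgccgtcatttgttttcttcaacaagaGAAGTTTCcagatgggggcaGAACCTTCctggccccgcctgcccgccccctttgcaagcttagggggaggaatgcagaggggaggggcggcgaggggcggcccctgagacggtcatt
The 2 HSP70 promoters differ at 3 of 250 bases (98.8% identical), and in both the match begins 104 bases before the gene start. The Hspb1 promoter has matches that begin 117 and 97 bases before the start. Of 18 heat shock genes with a promoter 10 held a match, against 4218 of 32851 promoters (12.8%). A gene counted if any of its promoters matched, whereas the share is over single promoters, so the units differ. A match describes the letters and does not show that the factor binds.

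Hspa1b had 11.2, 18.6, 17.5, 14.6 and 15.7 CPM in JGT04 100 mice, against 57.6, 21.9, 44 and 64 CPM in DEX mice. All extract libraries were lower, and DEX mouse 2 was the nearest to them. The log2 fold change was -1.59 ± 0.32 (adjusted p = 0.000371), and -1.40 without DEX mouse 4. Hspa1a was lower by a similar margin (-1.08 ± 0.24, adjusted p = 0.00101), but the genes share 68% and 65.4% of their 31-base words, so the split of reads between them is uncertain. With the listed-order term Hspa1b was -1.49 (adjusted p = 0.339). JGT02 100 soleus, in the same part of the order as DEX, averaged 38 ± 14.7 CPM of Hspa1b (SD, n = 4). Hspb1 had 232 to 314 CPM in JGT04 100, against 605, 269, 289 and 2040 CPM in DEX mice 1 to 4. DEX mice 2 and 3 lay within the extract group, and its log2 fold change of -1.57 (adjusted p = 0.000821) was -0.52 without DEX mouse 4 (adjusted p = 0.101). Hsp90aa1, a cytosolic HSP90, did not overlap (60.2 to 74 CPM against 92.3 to 262 CPM) and kept a log2 fold change of -0.73 without DEX mouse 4 (adjusted p = 2.04e-05). Hspa9, the mitochondrial HSP70, was higher by 0.29 (adjusted p = 0.000996). Hspb1, Hsp90aa1 and others share over 10% of their words with copies elsewhere, so their levels are uncertain.

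Immediate-early genes, which respond within minutes to stimuli, were lower for 20 of 27, against 17.9% of all genes. None was higher, and the median log2 fold change was -0.90. In DEX against untreated soleus, which shares the DEX libraries, 19 of the 27 were higher, against 23.9% of all genes. Without DEX mouse 4 there were 8 falls, and the median was -0.52; with the listed-order term it was -0.84. Nr4a3, an orphan nuclear receptor (chr4:48045153-48086447, plus strand), had 1.72, 1.72, 0.964, 1.36 and 0.744 CPM in JGT04 100 mice, against 3.58, 2.14, 9.72 and 9.55 CPM in DEX mice. All extract libraries were below all DEX libraries, and DEX mice 3 and 4 were the highest. Nr4a3 differed by -2.27 ± 0.37 on the log2 scale (adjusted p = 3.09e-05), -1.99 without DEX mouse 4 and -1.54 with the listed-order term (adjusted p = 0.369).

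Klf4, a zinc finger transcription factor, had 7.46 to 11.9 CPM in JGT04 100, against 17.8, 18.6, 55.5 and 23.1 CPM in DEX mice 1 to 4. The groups did not overlap, and DEX mouse 3 was far above the rest. Klf4 had a log2 fold change of -1.50 ± 0.23 (adjusted p = 1.35e-05), and -1.53 with the listed-order term (adjusted p = 0.142). Outside the list, Slc38a2, an amino acid carrier, was lower by 1.10 without overlap (adjusted p = 1.22e-05). Otud1, a deubiquitinase, fell by 1.62 (adjusted p = 0.000348). Some members of the list rested on DEX mouse 4. Fosl1, a subunit of the factor AP-1, had 0.461 to 0.689 CPM in JGT04 100, against 0.795, 0.546, 0.852 and 13.1 CPM in DEX mice 1 to 4, and its log2 fold change of -2.76 (adjusted p = 0.000272) was -0.35 without that library (adjusted p = 0.452).

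**Figure D3:**
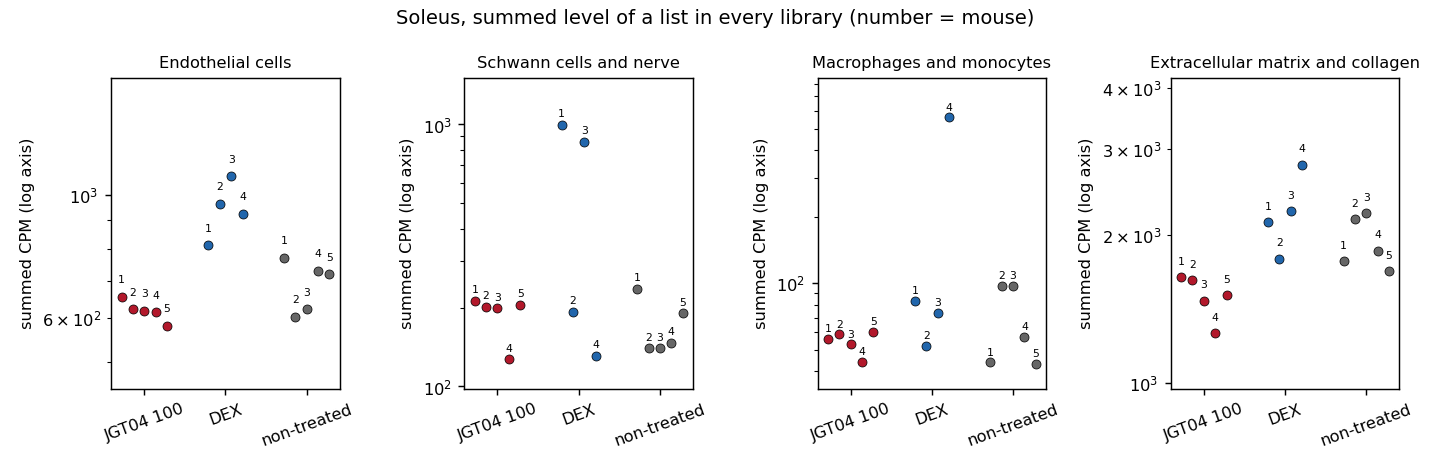
Summed CPM of markers of endothelial, Schwann, macrophage and extracellular matrix genes in each soleus library. Endothelial sums lie lower in all JGT04 100 libraries (582 to 655 CPM) than in all DEX libraries (812 to 1080 CPM), Schwann sums are high in DEX mice 1 and 3 (999 and 859 CPM), and the macrophage sum is high in DEX mouse 4 (563 CPM).

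Matrix genes were lower, and immune genes were set by 1 library. Of 41 extracellular matrix genes 23 were lower and none was higher (median -0.61), with 16 falls and a median of -0.42 without DEX mouse 4. For all genes the share of falls was 17.9%, and 10.1% without that mouse. The summed matrix genes were 1260 to 1640 CPM in JGT04 100, against 2130, 1790, 2240 and 2790 CPM in DEX mice 1 to 4, without overlap, and 1690 to 2220 CPM in untreated soleus. In the JGT02 400 mice the matrix list had a median of -0.51 in the later over the earlier mice, and with the listed-order term its median was -0.12. Fn1, fibronectin, had 22.8 to 28.7 CPM in JGT04 100 and 57, 37.4, 43.2 and 239 CPM in DEX mice 1 to 4. Its log2 fold change was -1.84 ± 0.39 (adjusted p = 0.000661), and -0.79 without DEX mouse 4 (adjusted p = 0.0647).

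Of 16 macrophage markers 9 were lower, and of 10 tested genes of MHC class II and dendritic cells 7 were lower. Without DEX mouse 4 there were no macrophage calls, and 1 higher and 1 lower MHC gene. Beside them, 17.9% of all genes were lower, and without that mouse 10.1% were lower and 8.66% higher. Macrophage markers summed to 44.1 to 60.5 CPM in JGT04 100, against 83.6, 52.3, 73.7 and 563 CPM in DEX mice 1 to 4 and 43.2 to 97.7 CPM in untreated soleus. Chil3, a chitinase-like protein of macrophages and neutrophils, had 0.254 to 0.917 CPM in JGT04 100, against 1.04, 0.714, 1.36 and 71.9 CPM in DEX mice 1 to 4, and its log2 fold change of -4.94 was -0.76 without DEX mouse 4 (adjusted p = 0.314). Cd44, a receptor for the matrix sugar hyaluronan, had 5 to 7.26 CPM in JGT04 100, against 9.94, 7.98, 9.95 and 99.4 CPM in DEX mice. Its groups did not overlap, and its log2 fold change was -2.47, or -0.68 without DEX mouse 4 (adjusted p = 0.0341).

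Nerve markers separated DEX mice 1 and 3 from the other libraries of both groups. Of 16 Schwann cell markers 15 were lower in JGT04 100 (median -1.30), against 17.9% of all genes. Prx, the Schwann cell protein periaxin, had 10.9, 9.83, 9.8, 6.53 and 10.2 CPM in JGT04 100 mice, against 62.2, 10.8, 51.1 and 5.85 CPM in DEX mice 1 to 4. Its log2 fold change was -1.77 ± 0.53 (adjusted p = 0.0118), but the groups overlapped, as DEX mouse 2 lay within the extract group and DEX mouse 4 below it. The marker sums were 127 to 212 CPM in JGT04 100, against 999, 193, 859 and 131 CPM in DEX mice 1 to 4 and 140 to 236 CPM in untreated soleus. Without DEX mice 1 and 3 no marker passed, and the median was 0.21. The Schwann result thus rests on those libraries, and the part of nerve RNA in the other results was not tested.

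Of 37 glucocorticoid receptor targets 4 were higher and 14 were lower (median log2 fold change -0.13), with 3 higher and 7 lower without DEX mouse 4. The median was 0.07 with the listed-order term. Of 20 circadian clock genes 7 were higher and 3 were lower (median 0.15), with 5 higher and 1 lower without DEX mouse 4. Beside both lists, 13.1% of all genes were higher and 17.9% lower, or 8.66% and 10.1% without that mouse. Tsc22d3, a classic receptor target also called GILZ, had 49.6, 52.7, 52.2, 57.6 and 58.2 CPM in JGT04 100 mice, against 39.3, 38.8, 40.3 and 38.3 CPM in DEX mice. All extract libraries were higher, by 0.47 ± 0.09 (adjusted p = 0.000297), or 0.47 with the listed-order term (adjusted p = 0.274), and the untreated mean was 51.1 ± 5.72 CPM (SD, n = 5). Fkbp5, another target, had 27.5 to 40.2 CPM in JGT04 100 and 34.5 to 46.5 CPM in DEX, and was lower by 0.30 (adjusted p = 0.0305), a call held in 4 of the 9 leave-one-out fits. Per2 had a log2 fold change of 0.13 and did not pass (adjusted p = 0.447).

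Some calls followed the listed order. Cebpb, a bZIP transcription factor, had 14.2, 16.8, 18.6, 26.8 and 14.8 CPM in JGT04 100 mice, against 35.8, 32.6, 37.7 and 46.3 CPM in DEX mice. The groups did not overlap and the log2 fold change was -1.07 ± 0.22 (adjusted p = 0.000621), but it was -0.11 with the term (adjusted p = 0.93). In the divided JGT02 400 group the later mice averaged 16.5 CPM and the earlier mice 32.1 CPM. Untreated soleus had 42.4 to 57.7 CPM of Cebpb, further from JGT04 100 than from DEX. Clock, a core circadian activator, fell by 0.50 (adjusted p = 0.000109), and its later and earlier JGT02 400 means were 14.1 and 17.9 CPM. It had 12.3 to 16.7 CPM in JGT04 100, 18.9 to 23.2 CPM in DEX and 27.3 to 35.4 CPM in untreated soleus. Over all called genes the divided group had a median later-over-earlier log2 value of 0.13 for the 1924 genes that were higher in JGT04 100, whose own median was 0.33, and of -0.16 for the 2632 lower ones, whose median was -0.55.

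Lars2, the mitochondrial leucyl-tRNA synthetase (chr9:123366927-123462666, plus strand), had the largest rise among the genes named by size. It had 433, 174, 160, 409 and 126 CPM in JGT04 100 mice, against 68.6, 64.3, 59.7 and 48.4 CPM in DEX mice and 61.9 ± 8.07 CPM in untreated soleus (SD, n = 5). All extract libraries were higher, with mice 1 and 4 the highest. Its log2 fold change was 2.11 ± 0.50 (adjusted p = 0.00179), and 1.19 with the term (adjusted p = 0.594). In the divided group the later mice averaged 118 CPM and the earlier mice 62.3 CPM. The short non-coding RNAs Rpph1 and Rmrp, chosen after their values were seen, were also higher without overlap, at 0.532 to 2.12 CPM against 0.0764 to 0.149 CPM for Rpph1 and at 0.319 to 1.36 CPM against 0.042 to 0.149 CPM for Rmrp. Rpph1 shares 70.2% of its 31-base words with Ccnb1ip1, and the annotation holds 2 entries named Rmrp, so their levels are uncertain. Both lie far under the 5 CPM required of genes named by size, so their counts are very low. In the divided group Rpph1 averaged 0.465 CPM in the later and 0.0592 CPM in the earlier mice, and Rmrp 0.181 and 0.0388 CPM. Slc46a3, a lysosomal carrier, had 10.3, 11.2, 10.4, 10.1 and 12.2 CPM in JGT04 100 mice, against 6.71, 6.22, 6.16 and 4.62 CPM in DEX mice. It was higher in every extract library (0.88 ± 0.10, adjusted p = 3.67e-08), and 0.63 with the term (adjusted p = 0.12).

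Other genes with the largest changes had varied roles. Pdp1, the phosphatase that activates pyruvate dehydrogenase, had 75.1, 64.9, 78.9, 77.2 and 81.4 CPM in JGT04 100 mice, against 37.7, 52.2, 37.7 and 41.2 CPM in DEX mice. Its groups did not overlap, and it was higher by 0.84 ± 0.13 (adjusted p = 1.47e-05), or 0.65 with the listed-order term (adjusted p = 0.276). Pik3ip1, an inhibitor of PI3 kinase signalling, had 39.3, 44, 49.8, 46.5 and 57.6 CPM in JGT04 100 mice, against 32.5, 33.4, 17.7 and 25.6 CPM in DEX mice. It too was higher in all extract libraries (0.80 ± 0.17, adjusted p = 0.000573). Gstt1, a glutathione transferase, was higher by 0.87 (adjusted p = 0.00161), or 0.61 without DEX mouse 4, and the other large rises were Amigo3 (1.03), Klhl33 (0.93), Lrrc61 (0.83) and Tmem53 (0.77). Nqo1, a quinone reductase of the antioxidant response, was higher by 0.79 (adjusted p = 0.000145), with JGT04 100 mouse 1 (28.5 CPM) below DEX mouse 2 (29.8 CPM).

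Prg4, the joint lubricant lubricin, had 18.3, 13.4, 11.1, 11.7 and 11.4 CPM in JGT04 100 mice, against 86.8, 30.4, 19.3 and 124 CPM in DEX mice. All extract libraries were lower, but JGT04 100 mouse 1 lay close to DEX mouse 3. Its log2 fold change was -2.31 ± 0.51 (adjusted p = 0.00112). In untreated soleus Prg4 ranged from 8.09 to 67.2 CPM. Nmrk2, a muscle kinase of NAD synthesis, had 16.8 to 35 CPM in JGT04 100, against 51.3, 43.7, 38.3 and 195 CPM in DEX mice 1 to 4. The groups did not overlap, and the log2 fold change of -1.75 (adjusted p = 0.00042) was -0.86 without DEX mouse 4 (adjusted p = 0.0276). Adamts9, a matrix protease, had a log2 fold change of -2.26, or -0.98 without that library, Fxyd5, a regulator of the sodium pump, -1.47 or -0.60, and Atp8b1, a phospholipid flippase, -1.43 or -0.71. Each of the last 3 had no overlap between the groups and passed without that library too.

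Markers of muscle stem cells and stromal cells changed in part. Of 11 satellite cell markers 4 were lower and none was higher, with 3 lower and 1 higher without DEX mouse 4. Over all genes 17.9% were lower and 13.1% higher, or 10.1% and 8.66% without that mouse. Myf5, a myogenic factor of satellite cells, had 2.18, 2.22, 2.03, 2.12 and 1.88 CPM in JGT04 100 mice, against 2.93, 3.28, 4.18 and 3.63 CPM in DEX mice. It was lower in every extract library (-0.75 ± 0.17, adjusted p = 0.00126). Of 12 markers of fibro-adipogenic progenitors 5 were lower, and Pdgfra, the receptor that defines them, had 6.96 to 9.36 CPM in JGT04 100 and 11 to 13.5 CPM in DEX, with a log2 fold change of -0.46 (adjusted p = 0.00787).

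Fibre type genes were higher about as often as all genes. Of 19 slow-fibre genes 3 were higher and 1 was lower, and of 21 fast-fibre genes 3 were higher and none was lower. The shares of all genes were 13.1% higher and 17.9% lower. The myosins Myh7, Myh2, Myh1 and Myh4 did not pass, with log2 fold changes of -0.10, 0.20, 0.19 and -0.94. Myh4, the fastest myosin, ranged from 15.5 to 1190 CPM in JGT04 100 and from 773 to 1950 CPM in DEX. Atp2a1, the fast calcium pump, was higher by 0.49 (adjusted p = 0.00509).

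No gene passed between JGT04 100 and 3 other treated soleus groups of the later part. Against JGT03 at 100 mg/kg (peony and liquorice 1 to 1), JGT04 at 400 mg/kg and resveratrol at 200 mg/kg, 0 genes (0%) passed in edgeR. At an unadjusted p under 0.05 there were 1178, 1273 and 1243 genes. DESeq2 called 3 genes, 0 genes and 1 gene. Intervals limit how large a difference could be hidden. The 95% interval of the log2 difference lay within 1.5-fold for 74% of genes against JGT03 100, 72% against JGT04 400 and 74% against resveratrol. For Eng the difference was -0.21 (-0.44 to 0.02) against JGT03 100, -0.15 (-0.39 to 0.09) against JGT04 400 and -0.10 (-0.33 to 0.13) against resveratrol. For Ucp3 it was 0.41 (-0.22 to 1.04), 0.54 (-0.13 to 1.21) and 0.77 (0.13 to 1.40). JGT04 400 differs from JGT04 100 only in dose, and JGT03 100 only in the ratio of roots.

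**Figure D4:**
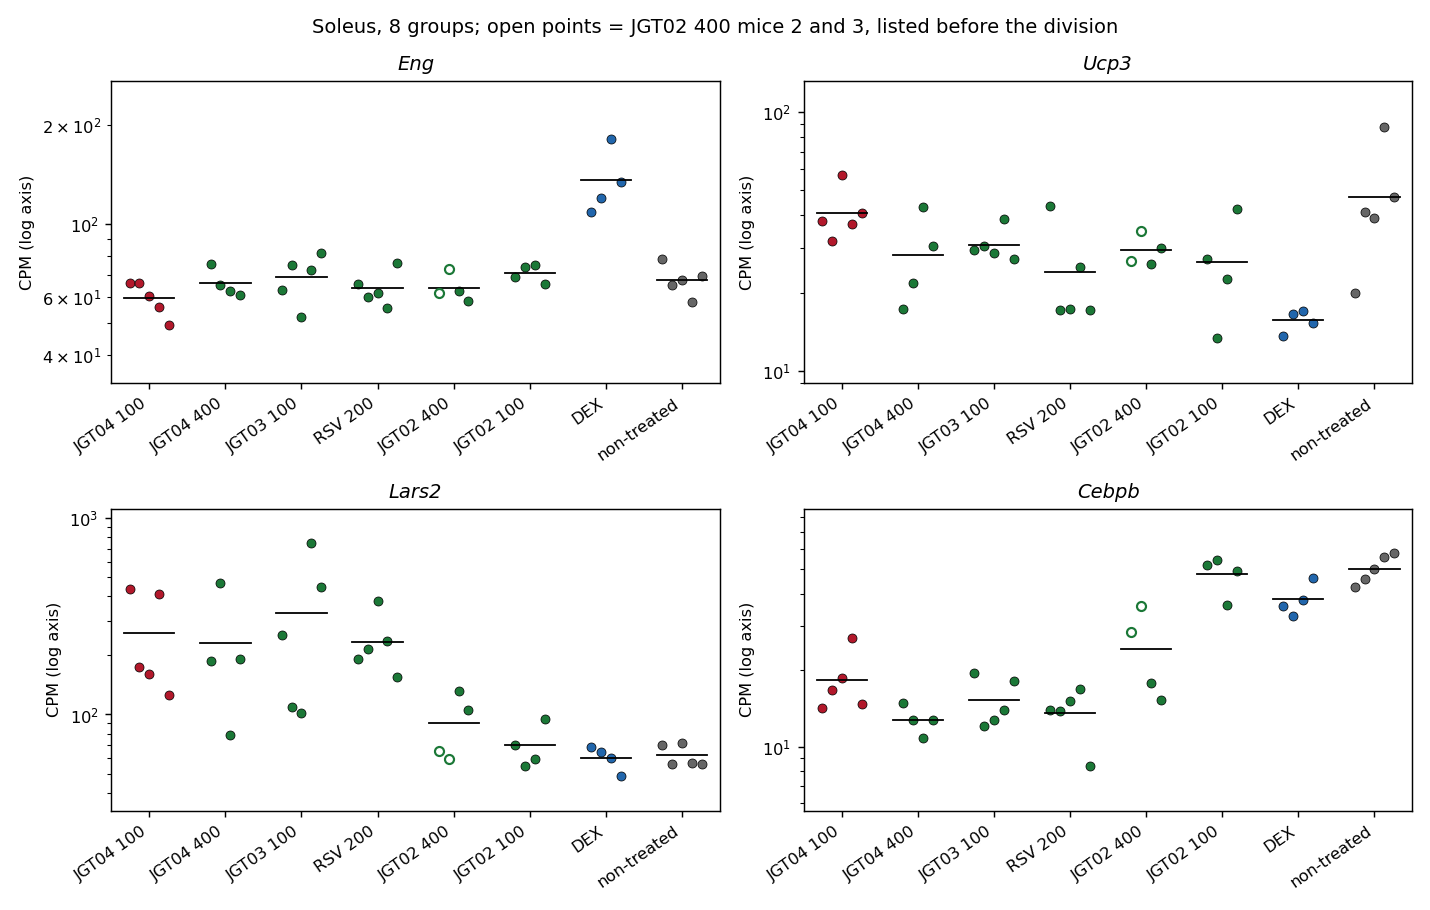
Mean CPM per group for Eng, Ucp3, Lars2 and Cebpb in 8 soleus groups, with points for libraries; open points in JGT02 400 are mice 2 and 3, which lie in the earlier part of the listed order. Eng averages 59.5 CPM in JGT04 100 and 136 CPM in DEX, with the other groups near the lower value, and Cebpb and Lars2 split by the listed order.

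JGT02 at 100 mg/kg (peony and liquorice 2 to 1) lies in the earlier part with DEX, so it gives an extract at the same dose on the other side of the listed order. This comparison was added after the data were seen. Here 643 genes (4.38%) were higher and 965 (6.57%) lower in JGT04 100, 10.9% in all. Eng averaged 59.5 ± 7.13 CPM in JGT04 100 and 70.9 ± 4.28 CPM in JGT02 100 (SD, n = 5 and 4), a log2 difference of -0.25 (95% interval -0.49 to -0.01, adjusted p = 0.175). The DEX mean of Eng was 136 ± 31.7 CPM. Cebpb was lower by 1.40 (adjusted p = 0.000332), Lars2 was higher by 1.90 (adjusted p = 0.0121) and Hspa1b was lower by 1.29 (adjusted p = 0.00867). Ucp3 did not pass, at 40.9 ± 9.61 CPM against 26.3 ± 11.9 CPM (log2 difference 0.63, adjusted p = 0.226). Slc46a3 averaged 10.8 ± 0.868 CPM in JGT04 100 and 9.58 ± 0.624 CPM in JGT02 100, and 5.93 ± 0.906 CPM in DEX. Fbxo32 averaged 247 ± 24 CPM in JGT04 100, 288 ± 31.8 CPM in JGT02 100 and 177 ± 39.2 CPM in DEX. By these means JGT02 100 lay nearer to JGT04 100 for Slc46a3, Eng and Fbxo32, and nearer to DEX for Cebpb, Lars2 and Hspa1b. For Ucp3, at 13.7 to 17.1 CPM in DEX, JGT02 100 lay between the groups. It was nearer to DEX in CPM and nearer to JGT04 100 on the log2 scale.

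The change differed between soleus and gastrocnemius for many genes. In the gastrocnemius JGT04 100 differed from DEX at 646 genes higher (4.48%) and 678 lower (4.7%) of 14428 tested, 9.18% in all. The difference between the muscles in the JGT04 100 against DEX change passed for 1485 genes more positive (9.81%) and 1262 more negative (8.33%) in soleus, of 15142 tested, 18.1% in all. The mouse numbers recur in both muscles, and with the numbered animal as block the counts were 1252 and 930. Eng had 40.6, 39, 35.3, 35.3 and 32.2 CPM in gastrocnemius of JGT04 100 mice, against 50.3, 50.3, 50.1 and 58.9 CPM in DEX mice, a log2 fold change of -0.52 ± 0.09 (adjusted p = 0.00017) without overlap. The soleus change minus this one was -0.62 ± 0.15 (adjusted p = 0.00341). For Cebpb the changes ran in opposite directions, with 0.66 in gastrocnemius (adjusted p = 0.0153) and a difference of -1.67 (adjusted p = 0.000105). Gastrocnemius Cebpb was 15.9, 15.6, 15.2, 23 and 23 CPM in JGT04 100 mice, against 12, 13.1, 12.1 and 10 CPM in DEX mice. The JGT04 100 mice at 23 CPM lie in a later part of the listed order than the others. Its soleus fall was far smaller with the listed-order term, as given above. Nr4a3 fell in both muscles, by 2.58 in gastrocnemius (adjusted p = 1.29e-05), and the difference of 0.36 did not pass (adjusted p = 0.691). Rbm38, an RNA-binding protein, was lower in gastrocnemius by 0.37 and higher in soleus by 0.36, a difference of 0.78 (adjusted p = 8.76e-05). Without soleus DEX mouse 4 the counts were 995 and 751 genes, and with the listed-order term none.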

How the data were processed

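RNA from soleus and gastrocnemius was taken with TRIzol, and libraries came from a directional MGIEasy kit with 100-base paired reads, per the labels. The authors deposited expected counts per gene symbol, for which the build GRCm38 and the tools RSEM 1.3.3, STAR 2.7.3a, Trim Galore 0.6.5 and FastQC 0.11.9 are named, per the submitters' processing notes. Settings, annotation and strand setting are not given in the sources used here. Of the deposited expected counts 92% were whole, and all were rounded to whole numbers. Columns were matched to samples by the names in the labels.

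Genes were kept with filterByExpr and libraries scaled with TMM. One fit over the soleus groups used 41 libraries, leaving out 2 named in the definition of the comparison, and one over both muscles used 83. The quasi-likelihood test of edgeR 4.0.16 (robust, R 4.3.3, limma 3.58.1) supplied p-values, and Benjamini-Hochberg adjustment ran over all genes tested, with a threshold of 0.05. SE is the log2 fold change divided by the square root of F. CPM are counts scaled to the TMM-adjusted total. Within a muscle the labels name separate mice.

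The members, the 27 pathway lists and the 12 cell type lists were chosen with earlier results of these data known. Genes named were the 12 largest rises and falls at a mean of at least 5 CPM, 20 panel genes, and in each list at most 3 members a direction; Adcy4, Gpr56, Rpph1 and Rmrp were chosen after their values were seen. Of 105 genes 103 had a position in GENCODE vM21 (GRCm38), 15 had over 10% of their 31-base words in common with some other gene, and 41 overlapped an exon of an antisense neighbour. If counting ignored strand, such pairs cannot be told apart. Promoters are from RefSeq GRCm38.p6. A gene withheld for evaluation is not reported here.

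Mouse numbers shared by the groups did not pair the libraries. The test was tested on simulated data for JGT04 100 against DEX with 14611 genes. It recovered 76.1% of 1.5-fold, 86.6% of 2-fold and 97% of 4-fold changes and called 0.0278% of unchanged genes. Whether these rates hold with a library that stands apart, as DEX mouse 4 does, or with the listed order was not tested. Other settings tried were no filter, DESeq2 1.42.0 or its size factors alone, only the groups compared, adding the left-out libraries, a mouse-number block and leaving out each library in turn. Fits without pairs of DEX mice, the listed-order term and the comparison with JGT02 100 were added after the data were seen. Python 3.11.15 with matplotlib 3.10.9, numpy 2.4.6 and pandas 2.3.3 drew the figures.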

Additional observations from a re-analysis of the deposited data

Results flagged for a closer look

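Samples far from the rest of their group were sought in the named genes; chance flags about 1 in 20 groups. In DEX mouse 4 these were, in CPM, 102 for Etfdh, 199 for Slc2a4, 114 for Prdx3, 52.9 for Lcn2, 313 for Mt1, 258 for Mt2, 13.1 for Fosl1 and 262 for Hsp90aa1. The same mouse stood apart at 99.4 CPM for Cd44, 26.8 for Adamts9, 77.8 for Fxyd5, 48.3 for Tnc, 239 for Fn1, 71.9 for Chil3, 60.7 for Ccr2 and 54.8 for Cd74. It did so too at 2.87 CPM for Klhl33, 195 for Nmrk2, 21.2 for Grrp1, 14.7 for Atp8b1, 91.5 for Rbm38 and 36.6 for Palm2Akap2. DEX mouse 3 stood apart for Klf4 (55.5 CPM) and DEX mouse 2 for Amigo3 (4.54 CPM). JGT04 100 mouse 1 stood apart for Bnip3 (359 CPM), Nqo1 (28.5 CPM), Mt1 (54.2 CPM) and Mt2 (24 CPM), and JGT04 100 mouse 4 for Per2 (14.7 CPM), Prx (6.53 CPM) and Igf1 (10.4 CPM).

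The change of JGT04 100 over DEX differed between soleus and gastrocnemius for 1485 genes in the positive and 1262 in the negative direction. Soleus minus gastrocnemius, the log2 values were 2.03 for Lars2, 0.78 for Rbm38, 0.75 for Lhpp and 0.73 for Amigo3, and -2.19 for Prg4, -2.02 for Cd44, -1.88 for Thbs1, -1.83 for Fn1 and -1.68 for Adamts9. In the DEX soleus each gene with a negative value was highest in mouse 4. Thbs1 had 45.4 CPM there, against 6.14 to 13.4 CPM in the other DEX mice.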

How the results depend on the processing

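Counts of JGT04 100 against DEX that moved past 1.5 times (1924 higher, 2632 lower, and 153 calls among the genes the naming rule gave) were, for higher, lower and named-gene calls kept, 0, 2 and 2 with the listed-order term, 500, 834 and 70 with the left-out libraries, 671, 907 and 76 with only the groups compared, 1281, 1487 and 92 without DEX mouse 4, and 995, 1268 and 73 without DEX mice 1 and 4. Leaving out each library in turn gave 1281 to 2076 higher, 1487 to 2862 lower and 92 to 147 named-gene calls. Soleus minus gastrocnemius (1485 and 1262) gave 0 and 0, 75 and 98, and 492 and 311 in the first 3 of these, and 995 to 1706 and 751 to 1647 when 1 library was left out, lowest without soleus DEX mouse 4. Against JGT02 100 (643 and 965), no filter gave 361 higher genes, the term 33 and 1, only the groups compared 1006 higher, the left-out libraries 1548 lower, and leaving out libraries 271 to 738 and 346 to 1044. DESeq2 called 3 genes lower than JGT03 100 and 1 higher than resveratrol, where edgeR called 0; leaving out a library gave up to 2 and 3 lower.

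No paired fit changed the calls much. Mouse numbers did not deviate together (r between -0.151 and 0.028 for the 4 shared numbers), and with the replicate block there were 1840 higher and 2474 lower genes. For soleus minus gastrocnemius it was 1459 and 1208, or 1252 and 930 with the animal as block.

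Several values changed sign; of these Fa2h and Prx were calls with all DEX libraries and the others were not. Trim63 (-0.01) was 0.004 to 0.009 with DESeq2 (0.004) and its size factors (0.004), no filter (0.005), the block (0.009) and the left-out libraries (0.008), -0.112 to 0.122 when 1 library was left out, and 0.19 without DEX mice 1 and 4. Without mice 1 and 4, Per2 was -0.11, Lcn2 0.018 and Myh2 -0.007. Without mice 1 and 3, Fa2h was 0.70, Prx 0.20, Foxo1 0.044, Ppargc1a 0.31 and Igf1 0.24. With the term, Foxo1 was 0.065, Igf1 0.81 and Mstn 0.44. Leaving out 1 library gave -0.251 to 0.059 for Myh7 (positive without DEX mouse 1 or 2), -0.373 to 0.124 for Ppargc1a and -0.308 to 0.001 for Igf1 (both positive without DEX mouse 3). The cause was not tested. The DEX group has 4 mice, which limits what small differences can be seen.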

Other observations

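Erythroid genes were higher for 3 of 8 in the JGT04 100 soleus, against 13.1% of all genes. Their sums were 818 to 1340 CPM in JGT04 100, 600 to 782 CPM in DEX and 468 to 635 CPM in untreated soleus. Hba-a2, a haemoglobin alpha chain, was higher by 0.71 (adjusted p = 0.0244). With the listed-order term the median of the list was -0.08.

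Interferon-stimulated genes were lower for 9 of 31, with none higher and a median log2 fold change of -0.39, and for 7 without DEX mouse 4. Beside the lists of this paragraph, 17.9% of all genes were lower and 13.1% higher, or 10.1% and 8.66% without that mouse. Ifi44, an interferon-induced gene, had 0.532 to 0.658 CPM in JGT04 100 and 0.764 to 1.79 CPM in DEX, without overlap (log2 fold change -1.29, adjusted p = 0.00109). Of 30 genes of myostatin, activin and Smad signalling 10 were lower and 4 were higher, with 4 lower and 1 higher without DEX mouse 4. The median of that list was -0.23, and 0.09 with the listed-order term. Acvr1b, an activin receptor, had 22.8, 26.6, 27.2, 23.3 and 29.5 CPM in JGT04 100 mice, against 15.7, 16.4, 15.3 and 16.4 CPM in DEX mice. It was higher in every extract library (0.70 ± 0.14, adjusted p = 0.000288). Of 23 cholesterol synthesis genes 8 were lower and 1 was higher, with 4 lower and 1 higher without DEX mouse 4. Their median was -0.18, and 0.09 with the listed-order term. Of 25 genes of the ATF4 response 8 were lower, or 2 without DEX mouse 4. Without that mouse the falls of the ATF4 and Smad lists were near the share of all genes.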
